A study of Oryctolagus cuniculus with 8 samples.

Results

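The genes described here encode proteins that copy DNA and supply its nucleotides. They were chosen by searching the annotation text of the array's probes for 14 protein names, among them minichromosome maintenance, replication factor C, replication protein A, origin recognition complex, proliferating cell nuclear antigen, thymidylate and ribonucleotide reductase, and by dropping RNA polymerases. The search found 130 probes, of which 28 for 12 RNA polymerase genes were dropped, and left 102 probes for 35 genes among 43603 probes on the array. Of these 35 genes, 26 gave enough signal to be tested. No DNA polymerase is among the 35, nor are MCM2, RRM1 and TOP2A, although the search text would have allowed them. Of the 14 names, 12 matched a member.

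Forebrain RNA came from New Zealand rabbit pups that were all born preterm by Caesarean section on gestational day 29, where term is 32 days, and sampled at postnatal day 14. The control group had 4 samples from pups given saline. The other group had 4 samples from pups given dexamethasone, a synthetic glucocorticoid, injected into muscle, with 2 doses of 0.25 mg/kg each day over no more than 5 days. The design text calls the samples biological replicates, and whether a sample was 1 pup or a pool is not given in the sources used here. The series' title names suppression of myelination by postnatal glucocorticoids as its subject.

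DNA is copied once per cell cycle. The origin recognition complex (ORC) marks the start sites and, with CDC6, loads a ring of MCM proteins that becomes the replicative helicase. At the fork the single strands are coated by replication protein A (RPA), primase lays down starts for the polymerases, replication factor C (RFC) loads the PCNA clamp, and FEN1 trims flaps on the lagging strand, while ribonucleotide reductase, thymidylate synthase and thymidylate kinase make the deoxynucleotides. Many of these genes are transcribed most in cells entering S phase, which in the forebrain after birth are chiefly glial and germinal zone progenitors.

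The 8 samples were hybridised on 4 Agilent 2-colour arrays, each holding 2 samples of one group, with samples 1 and 3 of a group in Cy3 and samples 2 and 4 in Cy5. All values are log2 intensities after normalisation, a level has meaning only against the same probe, and each difference is dexamethasone minus saline. The share of spots well above background was 39.1% to 59.7% in saline and 47.7% to 64.3% in dexamethasone samples, and no spot was saturated. Both saline arrays were on slide 1 and both dexamethasone arrays on slide 2, so slide and treatment cannot be told apart. The 10 spike-in probes were lower on the dexamethasone arrays by a median of -0.41 on the log2 scale (-0.56 to -0.30), and the part of this in the results was not tested. Of the forebrain neuron markers, 6 of 11 had a probe and all 6 were tested. SYT1, of synaptic vesicles, differed by -0.32 with groups that did not overlap (limma adjusted p = 0.361), and the other 5, STMN2, NEFM, NEFL, GAD1 and GAD2, by 0.10 to 0.54 with groups that overlapped.

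Each gene was read by 60-base probes, and the spread between probes is seen best where several cover nearly the same bases. RFC5, a subunit of the clamp loader, has 5 probes that move by 1 base each across an exon junction on the minus strand of chromosome 21 (oryCun2, the first at chr21:14385363-14386699). Capitals mark the 56 bases that all 5 share.
RFC5 probe 1: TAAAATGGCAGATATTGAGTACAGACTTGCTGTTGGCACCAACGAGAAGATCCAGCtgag
RFC5 probe 2: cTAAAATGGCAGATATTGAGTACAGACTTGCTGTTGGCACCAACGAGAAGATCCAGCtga
RFC5 probe 3: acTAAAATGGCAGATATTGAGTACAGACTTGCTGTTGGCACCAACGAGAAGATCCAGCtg
RFC5 probe 4: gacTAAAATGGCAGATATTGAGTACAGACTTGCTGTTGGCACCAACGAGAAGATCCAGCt
RFC5 probe 5: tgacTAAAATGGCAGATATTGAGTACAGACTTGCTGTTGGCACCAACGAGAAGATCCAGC
In the same order their differences were -0.06, -0.05, -0.24, -0.16 and 0.14, a spread from below 0 to above it for nearly one sequence.

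RPA3, the smallest subunit of replication protein A, has a pair of probes across a junction on the plus strand of chromosome 10, at chr10:31005544-31005828 and chr10:31005518-31005802, shown because they share the 34 bases in capitals and gave unlike differences.
RPA3 probe 3: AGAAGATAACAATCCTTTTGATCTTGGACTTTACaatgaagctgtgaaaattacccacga
RPA3 probe 4: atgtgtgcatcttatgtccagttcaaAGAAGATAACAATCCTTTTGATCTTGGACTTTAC
The difference was -0.16 at probe 3 and -0.48 at probe 4, where the 4 saline samples (10.92 to 11.28) lay above the 4 dexamethasone samples (10.25 to 10.71). For the helicase subunits MCM6 (minus strand, chr7:73385449-73389569) and MCM4 (plus strand, chr3:62493598-62494038) and the origin subunit ORC5 (minus strand, chr7:40407876-40432940), the probe that stands for the gene crosses a junction and is shown whole, since the values described next rest on it.
MCM6 probe: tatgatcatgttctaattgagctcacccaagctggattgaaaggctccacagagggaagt
MCM4 probe: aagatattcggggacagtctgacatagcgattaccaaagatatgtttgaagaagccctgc
ORC5 probe: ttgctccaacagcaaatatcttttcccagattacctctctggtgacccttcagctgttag

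Across the set, no gene passed the test. Of the 26 tested, 0 had an adjusted p under 0.05 (limma, Benjamini-Hochberg over 11251 genes), and the smallest was 0.347, for RPA3. At this threshold 0.0622% of all genes were called, 7 in number, with 0.0444% lower and 0.0178% higher. At an unadjusted p under 0.05 there were 5 members (19.2%), RPA3, MCM3, MCM6 and MCM8 below 0 and ORC5 above it, beside 13.7% of all genes, 7.41% lower and 6.31% higher. The groups did not overlap for 4 members (15.4%), MCM4, MCM6, MCM8 and RRM2, beside 13.3% of all genes. All 4 were lower with dexamethasone, beside 7.44% of all genes in that direction. The exact permutation test gave these 4 the smallest p it allows, 0.0286, which 1435 genes reached. It became 0.224 after adjustment over all genes. For MCM8 and RRM2, with all 8 values, groups without overlap fix the permutation p at that smallest value, so it adds no support. The test treats the samples as exchangeable and ignores that they share arrays in pairs. For MCM4 and MCM6, with saline 4 left out, it ran over 35 divisions. There the smallest p needs groups without overlap but is not fixed by them, and it is not separate support either. Below 0 were 15 of the 26 (57.7%), beside 45.7% of all genes, and the median difference was -0.04 against 0.02 for all genes. With each channel scaled to its 75th percentile instead, the median of all genes moved to -0.24 and that of the members to -0.14, 73.1% of members and 60.6% of all genes lay below 0, 2088 genes were called, and 8 members changed sign. Under that scaling 4 of the 26 members were called, beside 2088 of 11251 genes. The 4 were GINS4 (-1.20), MCM5 (-1.31), MCM8 (-1.94) and RRM2 (-1.35), while PCNA turned to 0.61 and RPA3 to 0.31. GINS4, MCM5 and RRM2 were well above background in 0 Cy3 samples and MCM8 in 1. Fewer dividing cells and less RNA per cell cannot be told apart in such bulk tissue.

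The precision limits what could be seen. The 95% confidence interval of a member's difference reached a median of 0.29 either side on the log2 scale, and 25 of the 26 intervals lay within 1 log2 unit of no difference, that of MCM8 being the exception. Within 0.5 either side lay 19 of the 26. The interval held 0 for 21 members.

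**Figure D1:**
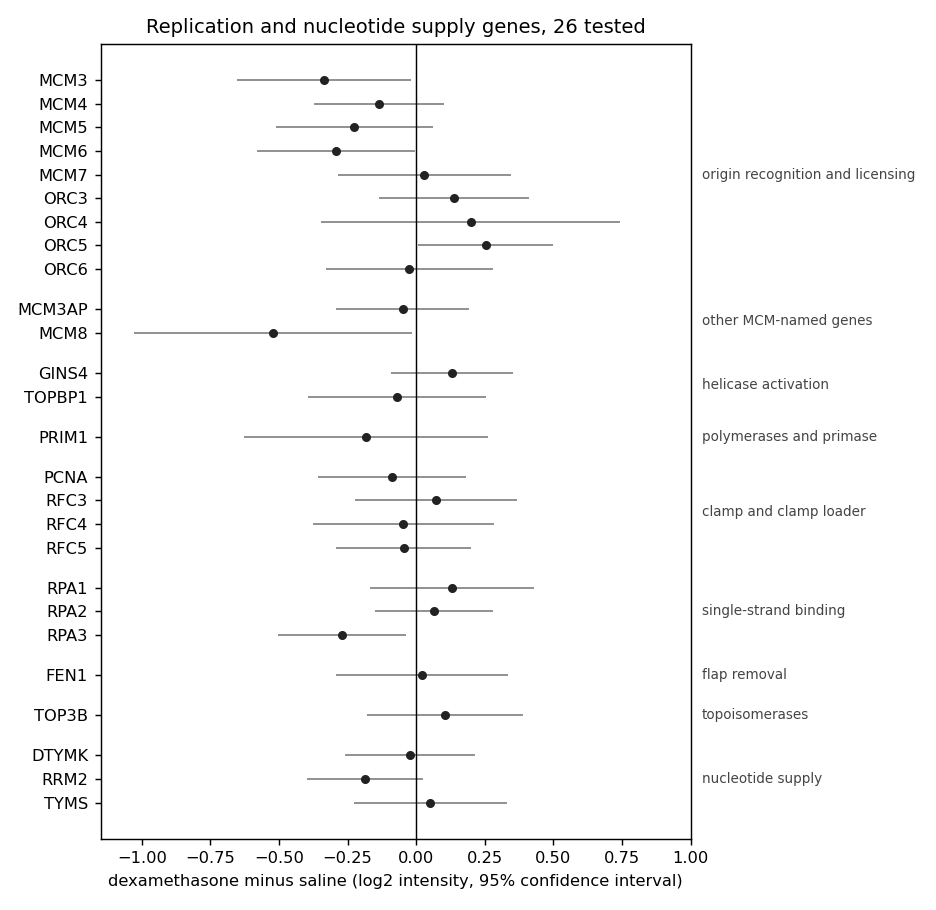
The horizontal axis gives the dexamethasone minus saline difference in log2 intensity of each of the 26 tested genes, as a point with its 95% confidence interval, grouped by role. MCM3 to MCM6, MCM8 and RPA3 lie left of 0 and ORC5 (0.25) lies right of it, and the intervals of 21 genes cross 0.

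The helicase subunits in the set are MCM3 to MCM7, without MCM2. Of these, MCM3 to MCM6 had values below 0 under each of the 5 scalings and background corrections compared, and MCM7 under 2 of them. MCM3, part of the ring, had 9.03, 8.97, 8.92 and 8.99 in saline samples 1 to 4 and 8.93, 8.41, 8.56 and 8.67 in dexamethasone samples 1 to 4. Dexamethasone 1 overlapped with the lowest saline sample, and the other 3 dexamethasone samples lay below all saline samples. Its difference was -0.34 (SE 0.14, n = 4 and 4; limma adjusted p = 0.359). This is the lowest of its 5 probes, which are shifted by 1 base each and reached up to 0.04, and the mean over the 5 gave -0.21. MCM4 had 9.71, 9.73 and 9.66 in saline 1 to 3, with saline 4 left out as an outlier spot, and 9.60, 9.45, 9.61 and 9.55 in the dexamethasone samples. The groups did not overlap, with a difference of -0.14 (SE 0.10; limma adjusted p = 0.536). Its other 2 tested probes, with all 8 values, gave -0.10 and -0.03 and overlapping groups.

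MCM5 showed a split that followed the saline arrays. It had 8.37 and 8.39 in saline 1 and 2, which share an array, 8.73 and 8.68 in saline 3 and 4, and 8.31, 8.37, 8.40 and 8.18 with dexamethasone, so that saline 1 and 2 lay within the dexamethasone range. The difference was -0.23 (SE 0.12; limma adjusted p = 0.423), and the probe was well above background in the 4 Cy5 samples and in 0 Cy3 samples. Without the array of saline 1 and 2 the difference was -0.39 (limma adjusted p = 0.0264), past the threshold, in a fit that called 2171 genes, and without the array of saline 3 and 4 it was -0.06 (limma adjusted p = 0.669). MCM6 had 10.38, 10.52 and 10.17 in saline 1 to 3, with saline 4 left out, and 9.90, 10.16, 10.15 and 10.10 with dexamethasone. The groups were apart by a narrow gap between saline 3 and dexamethasone 2, and the difference was -0.29 (SE 0.12; limma adjusted p = 0.362). A second MCM6 probe, with all 8 values, gave -0.06 and overlapping groups.

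MCM7, another subunit of the same ring, had 9.62, 9.66, 9.37 and 9.40 in saline and 9.41, 9.72, 9.67 and 9.39 in dexamethasone samples. The groups covered the same range, with a difference of 0.03 (SE 0.14; limma adjusted p = 0.930). Over the 5 subunits, grouped after their values were seen, 4 were below 0, beside 45.7% of all genes, 2 had groups that did not overlap, both lower, beside 7.44% of all genes, and the median difference was -0.23. The mean deviation of the 5 from their gene means was 0.06 to 0.14 in the saline and -0.14 to -0.04 in the dexamethasone samples, with MCM4 and MCM6 missing from saline 4. This is a description of values already listed and carries no test.

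**Figure D2:**
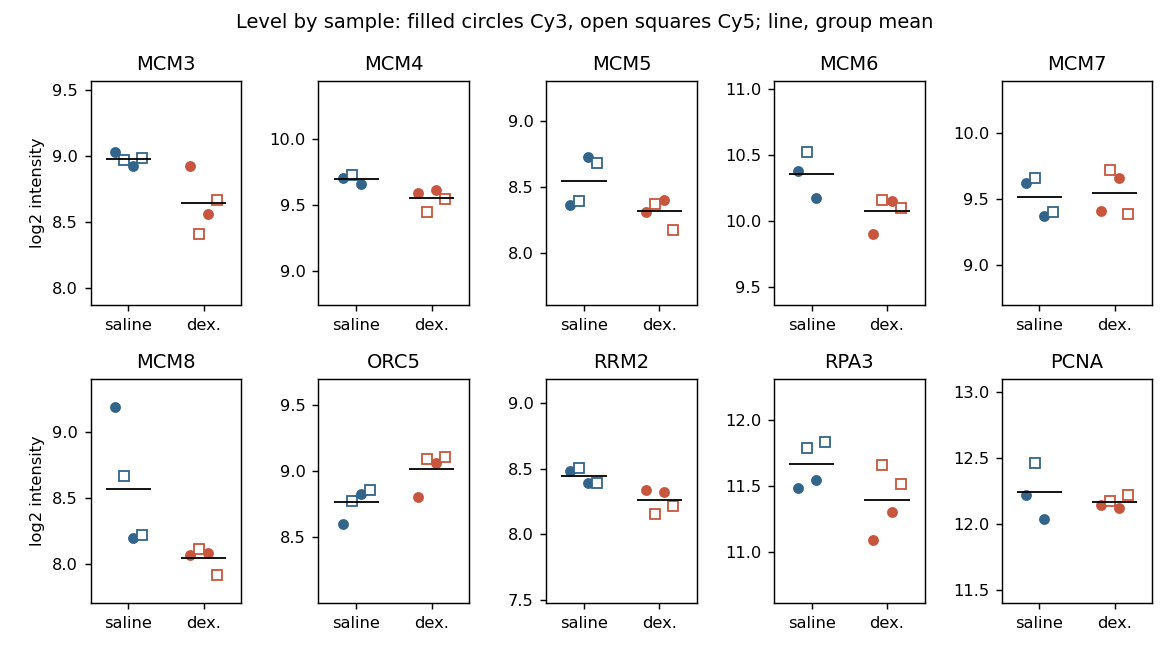
Each panel gives log2 intensity (vertical axis) for 1 gene in the saline and dexamethasone samples, with points for samples, circles for Cy3, squares for Cy5 and a line at the group mean. All panels span the same log2 range, and MCM4, MCM6, MCM8 and RRM2 have groups that do not overlap, while MCM7 and PCNA have overlapping ones.

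The tested origin recognition subunits had 3 of 4 values above 0, although with 75th percentile scaling ORC5 and ORC6 were at -0.49 and -0.44 and with Agilent's processed signals ORC3 was at -0.04. ORC5, an ATP-binding subunit of the complex, had 8.60, 8.77, 8.83 and 8.85 in saline and 8.80, 9.10, 9.06 and 9.10 in dexamethasone samples. Dexamethasone 1 lay inside the saline range and the other 3 above it, with a difference of 0.25 (SE 0.11, limma adjusted p = 0.362). The probe was well above background in 2 saline and 4 dexamethasone samples, so the size of ORC5's difference is not well measured. Its 3 probes gave 0.25, 0.21 and -0.04. ORC3, which supports the complex's core, had a difference of 0.14 (SE 0.12) at the probe that stands for it, and its 3 probes gave 0.14, 0.18 and -0.28.

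Those last values of ORC3 come from neighbouring stretches of the gene, on the plus strand at chr12:74465848-74466424 and chr12:74464931-74465846, and the probes are shown because their differences lay on opposite sides of 0.
ORC3 probe 2: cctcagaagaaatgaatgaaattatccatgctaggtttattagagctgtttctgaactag
ORC3 probe 3: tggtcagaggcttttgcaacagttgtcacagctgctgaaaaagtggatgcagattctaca
Probe 3 had 10.27 to 10.46 in saline and 9.93 to 10.28 in dexamethasone samples, while probe 2 had 9.59 to 9.75 and 9.75 to 9.95. ORC4 had a difference of 0.20 with the widest error of these subunits (SE 0.24), and all its 3 probes lay above 0, from 0.13 to 0.20. ORC6, the smallest subunit, had -0.03 (SE 0.13). ORC1 and ORC2, and the loader CDC6, were not well above background in any of the 8 samples at any probe, and their difference is unknown here. Of the 6 ORC subunits on the array 4 were tested, with 3 above 0 and a median of 0.17.

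Of the other genes that carry the MCM name, MCM8, a helicase of recombination repair, had 9.19, 8.66, 8.19 and 8.22 in saline and 8.07, 8.11, 8.08 and 7.92 in dexamethasone samples. Saline 1 and 2 stood far above saline 3 and 4, which lay just above the dexamethasone samples. The difference was -0.52 (SE 0.22; limma adjusted p = 0.362), and without the array of saline 3 and 4 it was -0.88 (limma adjusted p = 0.0204), where 209 genes were called, while without the array of saline 1 and 2 it was -0.16 (limma adjusted p = 0.194). The probe was well above background in 3 saline samples and 1 dexamethasone sample, so it was kept mainly for its saline values and the size of its difference is not well measured. Without MCM8, 4 of 25 members had an unadjusted p under 0.05, beside 13.7% of all genes. Groups without overlap were left for 3 of 25, beside 13.3% of all genes. The 4 other MCM8 probes were too dim to be tested. At those 4, the saline 1 value was 7.87 to 7.98, below the 8.08 to 8.12 of saline 3. MCM3AP, which encodes a scaffold of mRNA export, had 10.08, 9.86, 9.81 and 9.80 in saline and 9.85, 9.93, 9.83 and 9.74 in dexamethasone samples. The groups overlapped, and the difference was -0.05 (SE 0.11; limma adjusted p = 0.841). MCM9, the partner of MCM8, was above background in 1 saline and 1 dexamethasone sample at most, and MCMDC2, a meiotic relative, in 0 and 2.

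Helicase activation was covered thinly. GINS4, a subunit of the complex that joins the MCM ring to form the active helicase, had 8.32, 8.32, 8.10 and 8.11 in saline and 8.35, 8.37, 8.35 and 8.30 in dexamethasone samples. Saline 1 and 2 reached the dexamethasone range and saline 3 and 4 lay below it, with a difference of 0.13 (SE 0.10; limma adjusted p = 0.530), and only Cy5 samples were above background; with 75th percentile scaling it was -1.20 (limma adjusted p = 0.0334). TOPBP1, which helps to assemble the helicase and activates the ATR checkpoint kinase, had 9.85, 9.86, 9.66 and 9.64 in saline and 9.84, 9.88, 9.65 and 9.36 in dexamethasone samples. The groups overlapped, with a difference of -0.07 (SE 0.14). GINS3 and MCM10, which belong to the same step, were above background in 0 saline samples, and in at most 2 and 3 dexamethasone samples.

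The primase catalytic subunit PRIM1 had 9.003, 9.18, 9.32 and 9.24 in saline and 8.43, 9.14, 9.16 and 9.29 in dexamethasone samples. Only dexamethasone 1 stood below the saline range, and the difference was -0.18 (SE 0.19; limma adjusted p = 0.655). Its other probes gave 0.46 and 0.11, on the opposite side of 0.

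For the PCNA clamp and its loader, the groups overlapped at the probe that stands for each gene. PCNA had 12.22, 12.47 and 12.04 in saline 1 to 3, with saline 4 left out, and 12.15, 12.18, 12.13 and 12.23 in dexamethasone samples. The dexamethasone values lay inside the saline range, and the difference was -0.09 (SE 0.12, 95% confidence interval -0.36 to 0.18, limma adjusted p = 0.726). All 5 tested PCNA probes were below 0, from -0.18 to -0.04. Of the loader subunits, RFC3 had 11.01, 10.90, 10.87 and 11.15 in saline and 10.91, 11.29, 11.05 and 10.97 in dexamethasone samples. The groups overlapped, with a difference of 0.07 (SE 0.13), while another of its 3 probes gave -0.38. RFC4 had -0.05 (SE 0.14) at the probe that stands for it and -0.22 and -0.42 at the others, the last with saline samples (9.35 to 9.43) all above the dexamethasone samples (8.35 to 9.32), and RFC5 had -0.05 (SE 0.11).

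Of the 3 subunits of replication protein A, RPA3 lay below 0 and the other 2 above. RPA3 had 11.49, 11.79, 11.55 and 11.84 in saline and 11.09, 11.66, 11.31 and 11.51 in dexamethasone samples. In both groups the Cy5 samples were the higher ones, and within each dye both dexamethasone samples were lower than both saline samples, although the groups overlap when the dyes are pooled. The difference was -0.27 (SE 0.10; limma adjusted p = 0.347). RPA1, the large DNA-binding subunit, had 9.54, 9.64, 9.39 and 9.43 in saline and 9.90, 9.57, 9.61 and 9.44 in dexamethasone samples. The groups overlapped with dexamethasone 1 highest, and the difference was 0.13 (SE 0.13). RPA2, the subunit phosphorylated under replication stress, had 9.66, 9.89, 9.75 and 9.72 in saline and 9.76, 9.90, 9.70 and 9.92 in dexamethasone samples. The groups overlapped, with a difference of 0.06 (SE 0.09), and 4 of its 5 probes lay above 0.

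FEN1 had 9.06, 9.28, 9.15 and 9.12 in saline and 9.13, 9.06, 9.46 and 9.03 in dexamethasone samples. The groups overlapped, and its difference was 0.02 (SE 0.14; limma adjusted p = 0.953). TOP3B, a topoisomerase that passes single strands through each other, had 9.19, 9.18, 9.44 and 9.46 in saline and 9.35, 9.52, 9.54 and 9.29 in dexamethasone samples. The groups overlapped, with a difference of 0.11 (SE 0.12), and TOP3A, its relative, was not above background in any sample.

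Among the enzymes of nucleotide supply, RRM2, the small subunit of ribonucleotide reductase that limits deoxynucleotide synthesis in S phase, had 8.48, 8.51, 8.39 and 8.39 in saline and 8.34, 8.16, 8.33 and 8.21 in dexamethasone samples. All 4 saline samples lay above all 4 dexamethasone samples, with a difference of -0.19 (SE 0.09; limma adjusted p = 0.392). The probe was above background only in the 4 Cy5 samples, and 2 further RRM2 probes gave -0.05 and -0.02. TYMS, thymidylate synthase, had 10.15, 10.18, 9.99 and 10.09 in saline and 10.30, 9.92, 10.19 and 10.20 in dexamethasone samples. The dexamethasone samples spread on both sides of the saline range, and the difference was 0.05 (SE 0.12; limma adjusted p = 0.852). DTYMK, thymidylate kinase, had -0.02 (SE 0.10). RRM2B, the reductase subunit used outside S phase, was above background in 0 saline and at most 3 dexamethasone samples and was not tested.

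With every probe tested on its own, 68 of the 102 could be fitted, and 43 (63.2%) were below 0, beside 43.6% of 20704 probes. Probes of 1 gene share their target and are not independent. None of the 68 had an adjusted p under 0.05 (limma, smallest 0.326), beside 0.0338% of all probes, and 9 (13.2%) had an unadjusted p under 0.05, 7 of them lower and 2 higher, beside 12.7% of all probes and 5.95% that were lower. Of the 17 genes with at least 2 tested probes, 10 had probes on both sides of 0, 6 had all below and 1 had all above. The median SD between the probes of a member was 0.14, and over the 4058 genes of the array with several tested probes it was 0.12.

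**Figure D3:**
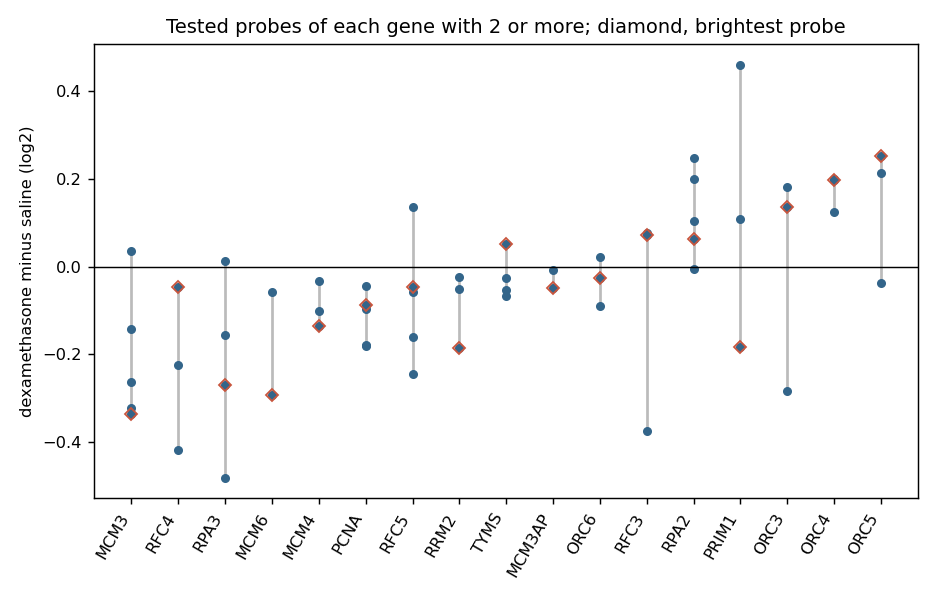
The vertical axis gives the dexamethasone minus saline difference (log2) of each tested probe for the 17 genes with 2 or more, with a vertical line from the lowest to the highest probe and a diamond at the probe that stands for the gene. PRIM1 spans -0.18 to 0.46 and RPA3 -0.48 to 0.01, while the 5 PCNA probes lie between -0.18 and -0.04.

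Other genes of the same pathway, from a list of 64 that the search does not take, were compared in the same fit. A probe was present for 38, and 30 were tested, of which 0 were called, 16 lay above 0 and 14 below, with a median of 0.02. An unadjusted p under 0.05 was reached by 4 (1 lower and 3 higher), beside 13.7% of all genes. The groups did not overlap for 4 of the 30, beside 13.3% of all genes, and these were all higher with dexamethasone, beside 5.9% of all genes in that direction. At the fork, LIG1, the ligase that seals Okazaki fragments, had -0.64 with dexamethasone 4 left out (SE 0.25; limma adjusted p = 0.359). For LIG1 the value was -0.11 with 75th percentile scaling, -1.03 without the array of saline 1 and 2 and -0.16 without that of dexamethasone 1 and 2. The fit without saline 1 and 2 gave LIG1 a limma adjusted p of 0.0373, but it called 2171 genes. DSCC1, of an alternative clamp loader, had 0.13. The single tested licensing gene DBF4, which activates the CDC7 kinase, had -0.29, and the histone chaperones ASF1A and NASP had 0.27 and -0.01. In the fit without saline 1 and 2, with its 2171 calls, DBF4 was -0.52 and ASF1A 0.44 (limma adjusted p = 0.0276 and 0.0222). Without the array of saline 3 and 4 they were -0.06 and 0.11. Of the deoxynucleotide genes, thymidine kinase TK1 had -0.17 and the pyrophosphatase DCTPP1 -0.14.

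The 4 genes without overlap were ADSS2, IMPDH1, PRPS1 and GART, from the list of purine and pyrimidine synthesis, for which no enrichment was tested. ADSS2 and PRPS1 kept their sign under each scaling, while IMPDH1 was at -0.74 with 75th percentile scaling and GART at -0.15 with Agilent's processed signals. ADSS2, on the branch to AMP, had 9.82, 9.85, 9.74 and 9.82 in saline and 10.14, 10.15, 9.97 and 10.28 in dexamethasone samples, a difference of 0.33 (SE 0.10; limma adjusted p = 0.305). IMPDH1, on the branch to GMP, had 8.53, 8.43, 8.18 and 8.17 in saline and 8.73, 8.67, 8.74 and 8.60 in dexamethasone samples. The difference was 0.36 (SE 0.11, limma adjusted p = 0.311). The IMPDH1 probe was well above background in 2 saline and 4 dexamethasone samples, so the size of its difference is not well measured. Without the array of saline 1 and 2, ADSS2 was 0.35 and IMPDH1 0.51 (limma adjusted p = 0.0333 and 0.0118), in a fit that called 2171 genes. With all 8 samples, the mean of the ADSS2 probes gave 0.09. PRPS1, which makes the ribose phosphate precursor, had 0.30, and GART, a multistep enzyme of the ring's assembly with saline 4 left out, had 0.41. PRPS1 and GART are named because they complete the count. Of the 8 tested genes of purine and pyrimidine synthesis the other 4, UMPS, GMPS, HPRT1 and ATIC, were below 0, from -0.14 to -0.06. The list's mean deviation was -0.16 to 0.00 in the saline and -0.02 to 0.16 in the dexamethasone samples, which overlap.

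All 8 tested markers of mitosis were below 0, under each of the 5 scalings and corrections too, with a median of -0.32, beside 45.7% of all genes below 0 as normalised here and 60.6% with 75th percentile scaling. Of the 8, 5 had groups without overlap, all lower, beside 7.44% of all genes in that direction, with UBE2C, which tags mitotic cyclins for destruction, at -0.59 (SE 0.10; limma adjusted p = 0.129) and the proliferation marker MKI67 at -0.44 (SE 0.12; limma adjusted p = 0.269). None was called, and the difference between the 2 lists was not tested. Both lists were chosen with earlier results of these data known, so the shared direction of the mitosis markers is not independent support. The mean deviation of the mitosis markers was 0.11 to 0.26 in the saline and -0.34 to -0.04 in the dexamethasone samples, and that of the 26 replication genes was -0.03 to 0.08 and -0.08 to 0.05, which overlap. Of 8 markers of dividing progenitors, 3 were tested, NES at 0.15, PAX6 at -0.14 and DCX at -0.07. The astrocyte markers, of which 5 of 7 were tested, had a median of 0.10 and all 5 lay above 0, against 3 of 5 with 75th percentile scaling and 4 of 5 with processed or subtracted signals. Among markers of other cell types, groups did not overlap for S100A9 of myeloid blood cells (-0.93, limma adjusted p = 0.0719), ABCB1 of endothelium (0.73, limma adjusted p = 0.174), KL of the choroid plexus (-0.49, limma adjusted p = 0.319) and SYT1. The other tested markers of blood, endothelium and choroid plexus overlapped and lay on the opposite side of 0. These were ALAS2, HBB2 and HBA of blood (0.17, 0.53 and 0.44), CLDN5 of endothelium (-0.02), and FOLR1 and TTR of the choroid plexus (0.60 and 0.03). Both tested microglia markers, CD14 and CD68, were below 0 (-0.39 and -0.15). The part of a change in cell types in the replication values was not tested.

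**Figure D4:**
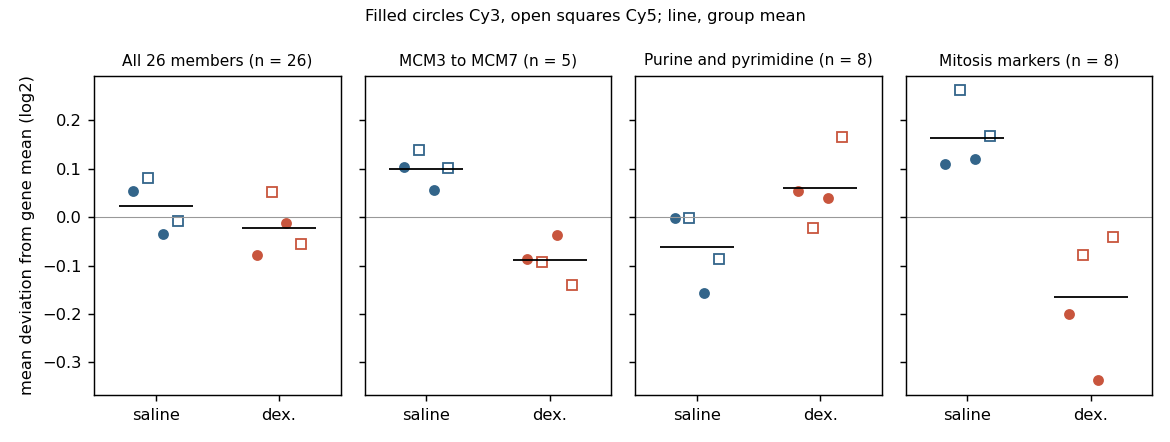
Each panel gives, for 1 gene list, the mean deviation of its genes from their gene means (log2, vertical axis) in each sample, with circles for Cy3, squares for Cy5 and a line at the group mean. The 26 replication genes overlap between the groups, MCM3 to MCM7 and the mitosis markers are apart with saline higher, and purine and pyrimidine synthesis has higher values with dexamethasone but overlaps.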

How the data were processed

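Agilent 2-colour scanner files hold, per the file headers, the authors' spot intensity and processed signal per dye, made with Feature Extraction (per the submitters' processing notes in version 10.7.3.1, and per the file headers in version 11.0.1.1, with build oryCun2). The deposited series table holds a signal per spot scaled to a median of 1 in every column. Log2 values per channel were computed here with limma 3.58.1 in R 4.3.3 and statmod 1.5.0: normexp (offset 50), loess within arrays, Aquantile between arrays. Outlier spots were left out, from 197 to 3022 a sample. Probes had to be well above background in 4 or more of the 8 samples, the brightest stood for a gene, and at least 3 values per group were needed.

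Dexamethasone was compared with saline by lmFit and eBayes, with dye as a term, array as a random block (correlation 0.239) and Benjamini-Hochberg adjustment over 11251 genes. An exact permutation test (2-sided) over 70 divisions of the samples can reach 0.0286 at the smallest. The members and lists were chosen with earlier results of these data known. Every tested gene of the rule is named, with values in all samples for genes fixed by name and for the 2 of smallest p in each role, and for other pathway genes the 2 of smallest p in each role. The array's gene IDs were matched to RefSeq (mOryCun1.1), which named 34 of the 35 genes, and TOP3A kept the array's name. Alternatives covered background, normalisation, filters, probe rule, array block, dye, replicate block, the deposited table and each sample or array left out. The fit was tested on simulated data.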

Additional observations from a re-analysis of the deposited data

Results flagged for a closer look

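Of 65 groups of 4 values, 2 held a sample whose gap to the nearest other was above Dixon's 95% critical value for 4 values, as a part of the group's range, and chance gives about 1 in 20. ORC5 in dexamethasone 1 was 8.80 while the other dexamethasone samples were 9.06 to 9.10. ORC6 in saline 3 was 9.13 while the other saline samples were 9.20 to 9.21.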

How the results depend on the processing

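Of 28 alternatives, 25 left 0 replication genes called. The exceptions were 75th percentile scaling, with 4, and leaving out the array of saline 1 and 2 or that of saline 3 and 4, with 1 each. The cause was not tested. Over all genes, 7 were called, against 14 with Agilent's processed signals, 11 with background subtracted, 2088 with 75th percentile scaling, 3 for probes above background in all 8 samples, 2 without a filter on dim probes, 11 with the mean of a gene's probes, 23 without the array block, 0 with array means, 18 without the dye term, 4 in the deposited table and 23 at an adjusted p under 0.1. Leaving out 1 sample gave 0 to 15 calls, and leaving out an array gave 2171 (saline 1 and 2), 209 (saline 3 and 4), 0 (dexamethasone 1 and 2) and 2 (dexamethasone 3 and 4). The fits without a saline array rest on 1 saline array. Their array correlations were -0.316 (without saline 1 and 2) and -0.378 (without saline 3 and 4), against 0.239 in the main fit. A negative correlation lowers the SE, so their adjusted p cannot be read like those of the main fit. The replicate numbers do not pair the samples (deviations correlated at -0.14 to 0.10), and with the replicate block in place of dye 1 gene was called over all genes, 0 of them a member, with the members' median at -0.04. The members' median was -0.14 with 75th percentile scaling, 0.020 without a filter on dim probes, and -0.07 to 0.01 with 1 sample left out. Members whose groups do not overlap, 4 in number, were 2 with processed signals, 9 with 75th percentile scaling, 2 above background in all 8 samples, 1 with the mean of probes, 2 with all 8 values, 10 with array means, 1 in the deposited table, 4 to 6 with 1 sample left out, and 11, 7 and 8 without the arrays of saline 1 and 2, saline 3 and 4, and dexamethasone 1 and 2. The share of members is given beside that of all genes, and was 15.4% beside 13.3% in the main fit. This order was not kept with processed signals (7.69% beside 13.17%) or above background in all 8 samples (10% beside 13.72%). The share was also lower with the mean of probes (3.85% beside 12.29%) and with all 8 values (7.69% beside 13.03%). In the deposited table it was higher (3.85% beside 1.55%), and with 1 sample left out it lay on either side. It was lower with 75th percentile scaling (34.6% beside 40.9%) and with array means (38.5% beside 48.6%). Without the array of saline 1 and 2 it was lower too (42.3% beside 47.4%). It was higher without the array of saline 3 and 4 (26.9% beside 24.4%) or dexamethasone 1 and 2 (30.8% beside 25.8%). Other pathway genes called were 4 with 75th percentile scaling and 7 without the array of saline 1 and 2. GINS4 reversed to -1.20 with 75th percentile scaling. MCM6 and RPA2 kept their sign under all 28 alternatives, and RRM2, MCM3, MCM5 and MCM8 under the 27 in which they could be tested, without that for probes above background in all 8 samples. Signal over background limits MCM5, RRM2 and GINS4, which were well above background in Cy5 samples alone, while their dim Cy3 values still enter the differences. It also limits MCM8 and ORC5, well above background in 1 and 2 Cy3 samples.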
